A study of Mus musculus with 13 samples.

Results

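The comparison described here is of the mRNA that TRAP (translating ribosome affinity purification) recovered against the whole-hindbrain input in DSP-4 mice, and it uses 8 of the 13 libraries of the series. All mice were *Slc6a2*-*eGFP*/*Rpl10a* animals of either sex, hemizygous for a bacterial artificial chromosome that expresses an EGFP-tagged ribosomal protein L10a under the *Slc6a2* promoter, and aged 6 to 8 months. The DSP-4 mice received 2 intraperitoneal injections of 50 mg/kg of the noradrenergic neurotoxin DSP-4, on days 1 and 7, and TRAP followed on day 14. From these mice come 6 TRAP libraries, replicates 1, 2, 3, 7, 8 and 9, and 2 input libraries, replicates 2 and 7. Saline mice of the same genotype gave 3 TRAP and 2 input libraries, which are used here where the enrichments of both treatments are set side by side and as part of the shared estimate of spread. Each replicate pooled the hindbrains, without cerebellum, of 2 mice of the same sex. TRAP and input with the same number came from the same homogenate, so replicates 2 and 7 are paired. The tag follows *Slc6a2*, so the pulldown can hold mRNA of every hindbrain cell that uses this promoter, not of the locus coeruleus (LC) alone.

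LC neurons make norepinephrine (NE) from tyrosine in steps that run through L-DOPA and dopamine. They load it into vesicles with VMAT2, take it back from outside the cell through the NE transporter (NET, the product of *Slc6a2*), and degrade it with monoamine oxidase and other enzymes. DSP-4 enters these neurons through NET and damages their axons. Galanin and other peptides are released beside NE, and homeodomain factors such as PHOX2A specify the noradrenergic fate. In TRAP, antibodies pull tagged ribosomes out of a homogenate together with the mRNA they are translating. A transcript used mainly by the tagged neurons is therefore a larger share of the TRAP library than of the input, while transcripts of other cells enter only by carry-over. Which identity and neuronal function genes were still enriched after the toxin is the question that this comparison addresses. In whole tissue and in pulldowns alike, fewer cells of a type and less RNA per cell cannot be told apart. The study's counts of LC neurons, made in other mice, did not differ between treatments.

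Values are normalised read counts, given as CPM. This is the count of a gene scaled to the total of its library, after that total was adjusted by a TMM (trimmed mean of M-values) factor. Fold changes are log2 differences of TRAP minus input with their standard error (SE) from edgeR's quasi-likelihood test. A gene passed at an adjusted p (Benjamini-Hochberg over all 12009 genes) under 0.1. Library totals were 17491357 to 27215994 counts in DSP-4 TRAP, against 21697383 and 24374141 counts in DSP-4 input. Mitochondrially encoded genes took 0.537% to 2.64% of the counts in TRAP, against 5.05% and 5.86% in input. TRAP replicates 2 and 3 stood apart from the others, with 20 and 22 genes at 0 counts, against 1 to 6 in the other 4 TRAP libraries. In TRAP against input of DSP-4 mice, 3281 genes (27.3%) were higher and 2854 (23.8%) lower, so 51.1% of all genes passed in either direction. With the homogenate as a block, which rests on the 2 paired replicates, the counts were 2037 higher and 1699 lower. They were 2081 and 1597 without input replicate 7, and 2443 and 1879 without input replicate 2. Over all genes the median log2 fold change was -0.01, and in 3166 genes (26.4%) all 6 TRAP libraries lay above both inputs, while in 2916 genes (24.3%) they lay below both.

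Noradrenergic identity genes were higher in TRAP from DSP-4 mice more often than genes at large. In 4 lists of the NE pathway, its cofactor, the transcription factors and the peptides with their receptors, 49 of 66 genes were measured. Measured genes are those present in the deposited counts, which the authors had filtered. Of these 49, 27 (55.1%, against 27.3% of all genes) were higher in TRAP, 7 (14.3%, against 23.8%) were lower and 15 did not pass. In 23 of the 49 all 6 TRAP libraries exceeded both inputs (26.4% of all genes), and in 6 they lay below both (24.3%). Their median log2 fold change was 0.55. With the homogenate block, 19 of the 27 higher genes and 0 of the 7 lower genes kept their call. Without input replicate 7 these counts were 17 and 2, and without input replicate 2 they were 21 and 1.

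Of the 27 enriched identity genes, 22 have a promoter window in the RefSeq table for GRCm38.p6, where a window is the 250 bases before the RefSeq start of the gene. The windows were searched on both strands for TGACGTCA, the full cAMP response element, and for ATTA, the core bound by homeodomain proteins such as PHOX2A. The cAMP response element stood in a window of 3 of the 22 genes, *Th*, *Scg2* and *Chgb*, and in 1.55% of all 32851 windows. ATTA stood in a window of 11 of the 22 genes, and in 54.9% of all windows. The former counts are of genes and the percentages are of windows, so they are not in the same unit. The stretches around the response element are shown because all 3 genes, an NE-synthesis enzyme and a pair of granins, were enriched. The *Dbh* stretch is shown for its 3 copies of ATTA. Capitals mark the motif, and each stretch is given 5′ to 3′ on the strand of the gene. All 4 stretches lie before the RefSeq start but inside the wider span that GENCODE, the source of the gene positions given here, has for the same gene. A match is a description of these letters and no evidence of binding.
*Th*, chr7:142900007-142900066, minus strand: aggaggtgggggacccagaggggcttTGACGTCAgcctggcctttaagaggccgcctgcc
*Scg2*, chr1:79440061-79440120, minus strand: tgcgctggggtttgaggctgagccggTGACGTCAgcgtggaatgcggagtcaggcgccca
*Chgb*, chr2:132781544-132781603, plus strand: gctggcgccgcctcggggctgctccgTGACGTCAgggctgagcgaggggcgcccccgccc
*Dbh*, chr2:27165327-27165486, plus strand: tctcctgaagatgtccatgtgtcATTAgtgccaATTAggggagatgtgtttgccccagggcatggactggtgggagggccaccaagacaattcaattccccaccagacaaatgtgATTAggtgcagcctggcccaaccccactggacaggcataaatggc

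The transporter gene that drives the tag had the largest enrichment of any gene that passed with all 6 TRAP libraries above both inputs and a mean of at least 1 CPM in input. *Slc6a2* (chr8:92960079-93001667 on GRCm38, plus strand) had a lowest level of 27.7, a median of 41.3 and a highest of 73.8 CPM in DSP-4 TRAP, against 4.52 and 1.83 CPM in DSP-4 input. Its log2 fold change was 3.81 ± 0.42 (SE, adjusted p = 9.13e-06), and single TRAP libraries were 8.72 to 23.3 times the mean input. The groups did not overlap, and TRAP replicate 2 was the highest while replicate 7 was the lowest. *Dbh* (chr2:27165233-27183200, plus strand) encodes dopamine beta-hydroxylase, which makes NE from dopamine. It had 39.9, 51.3 and 80.96 CPM as its lowest, median and highest DSP-4 TRAP levels, against 10.6 and 8.22 CPM in input, with a log2 fold change of 2.60 ± 0.27 (adjusted p = 5.72e-06). Here TRAP replicate 9 was the highest and replicate 2 the lowest, so the order of the libraries was not that of *Slc6a2*.

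*Gal* (chr19:3409915-3414544, minus strand), the gene of the peptide galanin, had 33.9, 47.6 and 52.2 CPM (lowest, median, highest) in DSP-4 TRAP, against 8.94 and 14.1 CPM in input. Its log2 fold change was 1.98 ± 0.23 (adjusted p = 1.28e-05), and the lowest TRAP library stood above the higher input. *Phox2a* (chr7:101818313-101822726, plus strand) was a scarce transcript with 3.69, 6.32 and 12.02 CPM in TRAP, against 1.58 and 0.423 CPM in input (log2 fold change 2.70 ± 0.57, adjusted p = 0.00132). *Calcr* (chr6:3685680-3764714, minus strand), the calcitonin receptor, had 3.57, 10.7 and 11.4 CPM in TRAP, against 1.66 and 0.282 CPM in input (log2 fold change 3.17 ± 0.62, adjusted p = 0.000808). The inputs of both genes differed several-fold from each other, and their SEs were the widest of the 5. Without input replicate 7, the lower of the pair, the log2 fold changes were 2.05 for *Phox2a* and 2.41 for *Calcr*, and without input replicate 2 they were 3.92 and 4.93. Within the homogenates of replicates 2 and 7, TRAP minus input on the log2 scale was 4.02 and 3.89 for *Slc6a2*, 1.91 and 2.66 for *Dbh*, 2.54 and 1.60 for *Gal*, 1.43 and 3.86 for *Phox2a*, and 2.68 and 4.10 for *Calcr*. All 5 genes passed under every one of the 25 alternatives tried.

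**Figure D1:**
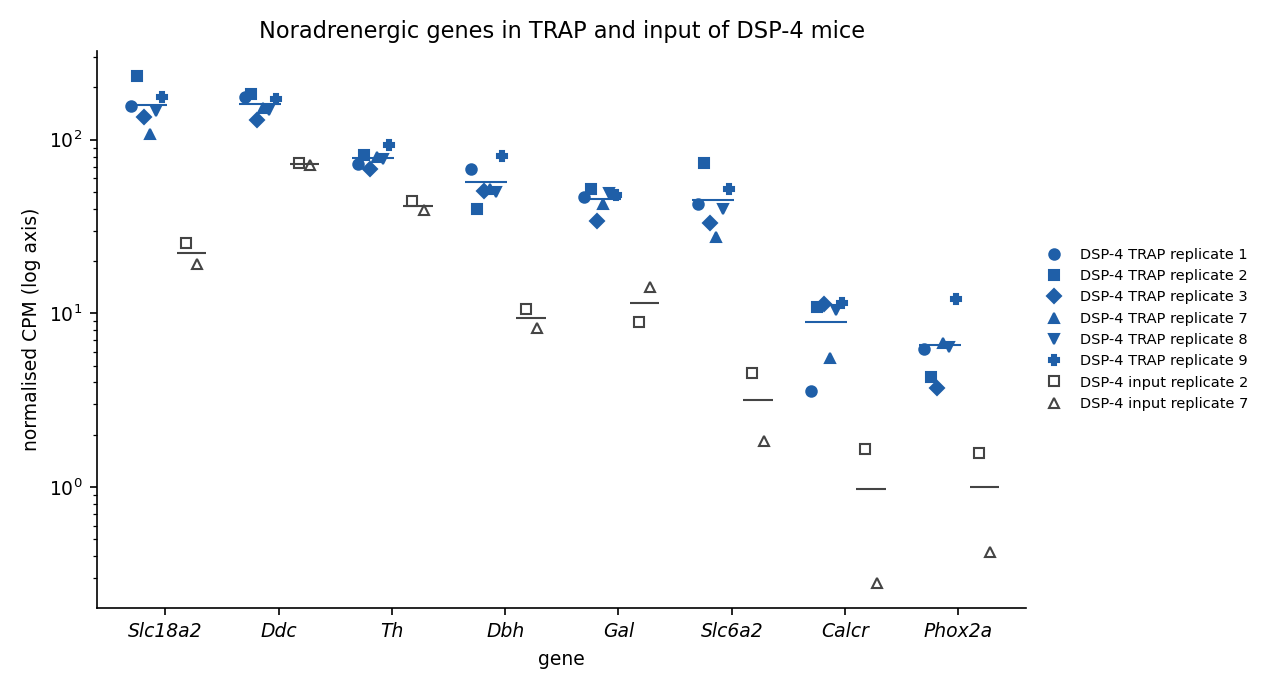
Normalised CPM on a log axis for 8 noradrenergic genes in each of the 6 DSP-4 TRAP libraries (filled) and the 2 DSP-4 input libraries (open). Horizontal lines are group means. For every gene all TRAP points lie above both input points, and the log2 fold change is largest for *Slc6a2* (3.81) and smallest for *Th* (0.91).

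The NE pathway list was enriched almost throughout. Of its 11 measured genes 9 were higher in TRAP (27.3% of all genes were), 1 was lower and 1 did not pass, with a median log2 fold change of 0.91. *Slc18a2*, which encodes VMAT2, the vesicular transporter, had 108, 151 and 233 CPM (lowest, median, highest) in DSP-4 TRAP, against 25.5 and 19.3 CPM in input, a log2 fold change of 2.83 ± 0.26 (adjusted p = 2.86e-06). The early enzymes of synthesis were enriched less. *Th*, tyrosine hydroxylase and the rate-limiting enzyme, had 67.6, 78.6 and 93.8 CPM in TRAP, against 44.3 and 39.3 CPM in input (log2 fold change 0.91 ± 0.20, adjusted p = 0.00173). *Ddc*, which turns L-DOPA into dopamine, had 131, 162 and 184 CPM in TRAP, against 73.9 and 71.2 CPM in input (log2 fold change 1.15 ± 0.18, adjusted p = 0.000153). *Ddc* also serves serotonergic neurons, and *Slc18a2* serves every monoaminergic neuron. No TRAP library overlapped an input for these 3 genes.

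Of the enzymes that degrade NE, *Akr1b3*, an aldose reductase, was the most clearly enriched. Its levels were 73.3, 92.2 and 103 CPM (lowest, median, highest) in TRAP, against 35.9 and 34.4 CPM in input (log2 fold change 1.37 ± 0.17, adjusted p = 1.9e-05). *Maoa* and *Maob*, the monoamine oxidases, rose by 0.84 ± 0.23 (adjusted p = 0.00791) and 0.70 ± 0.21 (adjusted p = 0.015) on the log2 scale, with all 6 TRAP libraries above both inputs. *Adh5*, an alcohol dehydrogenase of the same list, rose by 0.88 ± 0.28 (adjusted p = 0.0185), with TRAP replicate 2 at 64.8 CPM beside inputs of 71.4 and 64.2 CPM. *Cyb561*, whose product supplies electrons to dopamine beta-hydroxylase inside vesicles, had 67.6 to 139 CPM in TRAP against 92.05 and 89.3 CPM in input, with an adjusted p of 0.967. With the homogenate block the adjusted p-values of *Maoa*, *Maob* and *Adh5* were 0.134, 0.132 and 0.197, so 6 genes of the list passed. Without input replicate 7, *Maob* (0.132) and *Adh5* (0.15) also missed the threshold.

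The genes of the tetrahydrobiopterin cofactor, which tyrosine hydroxylase needs, were divided. Of 6 measured, 2 (33.3%, against 27.3% of all genes) were higher and 1 (16.7%, against 23.8%) was lower. The 3 that did not pass were *Pts* (-0.28 ± 0.18), *Qdpr* (0.17 ± 0.17) and *Spr* (-0.09 ± 0.15). *Gch1*, the first enzyme of cofactor synthesis, had 16.9, 22.5 and 29.6 CPM (lowest, median, highest) in DSP-4 TRAP, against 12.1 and 14.1 CPM in input (log2 fold change 0.83 ± 0.24, adjusted p = 0.011). *Gchfr*, the feedback regulator of that enzyme, went the other way at 2.71 to 5.34 CPM in TRAP, against 8.65 and 13.9 CPM in input (log2 fold change -1.35 ± 0.36, adjusted p = 0.00627). Neither gene overlapped between fractions. *Pcbd1*, a cofactor-recycling enzyme, rose by only 0.34 ± 0.16 (adjusted p = 0.0948), and its call was lost without any 1 of TRAP replicates 1, 7 and 9, of both inputs and of 4 of the 5 saline libraries (adjusted p up to 0.538, without input replicate 2). With the block the adjusted p was 0.0942 for *Gch1*, 0.129 for *Gchfr* and 0.396 for *Pcbd1*. Without input replicate 2 *Gch1* stood at 0.127, and without input replicate 7 *Gchfr* stood at 0.172.

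Among the transcription factors of noradrenergic neurons, 7 of 14 listed were measured. Of these, 4 (57.1%, against 27.3% of all genes) were higher in TRAP and 1 (14.3%, against 23.8%) was lower. The 2 that did not pass were *Ebf3* (0.22 ± 0.20) and *Gata2* (0.48 ± 0.70). *Tfap2b*, an AP-2 factor needed in noradrenergic development, had 10.2, 13.7 and 15.97 CPM (lowest, median, highest) in TRAP, against 5.79 and 5.40 CPM in input (log2 fold change 1.21 ± 0.28, adjusted p = 0.00296). *Gata3*, a zinc-finger factor that serotonergic neurons also use, rose by 1.04 ± 0.30 (adjusted p = 0.011). TRAP replicate 2 was the highest for *Tfap2b* and *Gata3*, and the median over the list was 1.77 in that library against 0.61 in replicate 7, the lowest. *Rnf220*, a ubiquitin ligase gene of the same list, was lower, at 128 to 312 CPM in TRAP, against 349 and 333 CPM in input (log2 fold change -0.76 ± 0.24, adjusted p = 0.0193). Without input replicate 7 the adjusted p was 0.116 for *Gata3*. *Rnf220* stood at 0.11 without input replicate 2 and at 0.216 with the block.

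In the list of LC peptides and peptide receptors, 25 of 33 genes were measured, of which 12 (48.0%, against 27.3% of all genes) were higher, 4 (16%, against 23.8%) lower and 9 did not pass, with a median log2 fold change of 0.46. *Calca*, which encodes CGRP, had 48.9, 60.8 and 70.1 CPM (lowest, median, highest) in DSP-4 TRAP, against 20.02 and 23.03 CPM in input (log2 fold change 1.495 ± 0.21, adjusted p = 4.75e-05). *Adcyap1*, the gene of the peptide PACAP, had 60.5, 67.8 and 75.4 CPM in TRAP, against 35.9 and 37.6 CPM in input (log2 fold change 0.89 ± 0.15, adjusted p = 0.000299). The granin genes *Scg2* and *Chgb*, which build dense-core vesicles, were abundant. *Scg2* had 569, 742 and 899 CPM in TRAP, against 289 and 309 CPM in input (log2 fold change 1.29 ± 0.20, adjusted p = 0.000109). *Chgb* had 313, 378 and 447 CPM in TRAP, against 181 and 193 CPM in input (log2 fold change 1.03 ± 0.17, adjusted p = 0.000199). For all 4 of these genes the lowest TRAP library stood above the higher input. *Penk*, the enkephalin precursor, rose by 0.41 ± 0.18 (adjusted p = 0.0718), but its adjusted p was 0.205 with the block, 0.325 and 0.196 without input replicates 2 and 7, and 0.105 without TRAP replicate 1.

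Of the peptide receptors beside *Calcr*, *Npr3*, the clearance receptor of natriuretic peptides, had 5.89 to 13.2 CPM in TRAP, against 3.71 and 2.11 CPM in input (log2 fold change 1.59 ± 0.44, adjusted p = 0.00836). *Tacr1*, the substance P receptor, had 10.9 to 26.4 CPM in TRAP, against 6.26 and 6.16 CPM in input (log2 fold change 1.39 ± 0.36, adjusted p = 0.00536). Both genes were scarce, and neither overlapped between fractions. *Hcrtr2*, an orexin receptor (0.98 ± 0.38, adjusted p = 0.0466), *Npy1r*, an NPY receptor (0.80 ± 0.34, adjusted p = 0.0667), and *Adcyap1r1*, the PACAP receptor (0.55 ± 0.24, adjusted p = 0.0814), rose by smaller log2 amounts. On the lower side stood *Vgf*, a neuropeptide precursor (-0.70 ± 0.27, adjusted p = 0.045), *Cckbr*, a cholecystokinin receptor (-0.89 ± 0.30, adjusted p = 0.0261), *Npy*, the gene of neuropeptide Y (-0.63 ± 0.27, adjusted p = 0.0766), and *Ramp1*, a partner of CGRP receptors (-0.52 ± 0.23, adjusted p = 0.0791). With the block, *Hcrtr2*, *Npy1r* and *Adcyap1r1* stood at 0.244, 0.145 and 0.167, and *Vgf*, *Cckbr*, *Npy* and *Ramp1* at 0.438, 0.31, 0.184 and 0.205. Without input replicate 7 *Npr3*, *Vgf* and *Hcrtr2* stood at 0.138, 0.233 and 0.215, and without input replicate 2 *Vgf* and *Hcrtr2* stood at 0.118 and 0.187. Without input replicate 7 *Npy1r*, *Adcyap1r1*, *Npy* and *Ramp1* stood at 0.289, 0.458, 0.284 and 0.281, and without input replicate 2 at 0.186, 0.108, 0.195 and 0.207. These 4 calls were also lost without TRAP replicate 9 and without at least 1 of TRAP replicates 1, 7 and 8. *Cckbr* stood at 0.195 without input replicate 2. The orexin receptor gene *Hcrtr1*, known in LC neurons, had 9.18 to 14.6 CPM in TRAP against 9.37 and 8.60 CPM in input and an adjusted p of 0.136.

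A further list holds 17 measured genes that LC neurons are known to express at high levels outside these pathways. It was chosen with earlier results of these data known. Its members *Gabrq*, *Slc10a4*, *Fkbp1b* and *Rab3b* are also in the study's co-expression module with *Dbh*, *Gal* and *Slc6a2*. That module was built from samples of this series, so the share of higher genes in this list is not an independent test. Of the 17 genes, 9 (52.9%, against 27.3% of all genes) were higher in TRAP, 1 (5.88%, against 23.8%) was lower and 7 did not pass (median 0.66). *Gabrq*, the theta subunit of the GABA-A receptor, varied little between libraries, with 19.99, 21.1 and 23.2 CPM (lowest, median, highest) in DSP-4 TRAP, against 4.73 and 5.78 CPM in input (log2 fold change 2.02 ± 0.21, adjusted p = 7.07e-06). *Tenm1*, a teneurin of synaptic contacts, rose by 2.05 ± 0.31 (adjusted p = 9.43e-05). *Slc10a4*, an orphan vesicular transporter of monoaminergic and cholinergic neurons, had 43.5 to 57.96 CPM in TRAP, against 21.3 and 18.98 CPM in input (log2 fold change 1.33 ± 0.18, adjusted p = 3.51e-05). *Rab3c*, a vesicle GTPase, rose by 1.92 ± 0.36 (adjusted p = 0.000609), with replicate 2 at 931 CPM and the other 5 TRAP libraries at 357 to 486 CPM. *Fkbp1b*, a partner of calcium release channels, was lower, at 42.5 to 67.5 CPM in TRAP, against 70.2 and 82.2 CPM in input (log2 fold change -0.49 ± 0.17, adjusted p = 0.0261). With the block *Fkbp1b* stood at 0.166, and without input replicate 7 at 0.268. Imprinted genes of neuroendocrine cells showed a mixed picture, with 6 of 13 (46.2%, against 27.3%) higher, among them *Ndn* (1.04 ± 0.25) and *Peg3* (1.64 ± 0.29). The 2 lower ones (15.4%, against 23.8%) were *Nnat* (-1.51 ± 0.16) and *Gnas* (-0.60 ± 0.21, adjusted p = 0.03). The call of *Gnas* was lost with either DSP-4 input left out.

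Of 19 GABA and glycine receptor genes measured, 13 (68.4%, against 27.3% of all genes) were higher in TRAP and 2 (10.5%, against 23.8%) lower, with a median log2 fold change of 0.98. With a correction for GC content 9 of the 19 were higher. Among the ion-channel subunits, *Gabrb2* rose by 1.90 ± 0.21 (adjusted p = 9.13e-06) and *Gabrg1* by 1.82 ± 0.19 (adjusted p = 6.61e-06). The 2 lower genes were those of the metabotropic GABA-B receptor. *Gabbr2* had 2.84, 5.82 and 9.66 CPM (lowest, median, highest) in TRAP, against 27.01 and 28.9 CPM in input (log2 fold change -2.24 ± 0.45, adjusted p = 0.00102). *Gabbr1* was lower by less (log2 fold change -0.44 ± 0.16, adjusted p = 0.0389), and its adjusted p was 0.137 without input replicate 2, 0.185 without input replicate 7 and 0.386 with the block. Of 21 glutamate receptor genes, 9 (42.9%) were higher and 1 (4.76%) lower. *Gria3* (1.75 ± 0.27) and *Gria2* (1.67 ± 0.20), AMPA receptor subunits, and *Grm7* (1.32 ± 0.20) were among the higher ones. *Grm4*, the lower gene, is a marker of cerebellar granule cells, with 9.72 to 26.9 CPM in TRAP, against 29.99 and 24.9 CPM in input (adjusted p = 0.0526, 0.247 and 0.142 without input replicates 2 and 7, 0.202 with the block).

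Channels that set firing were split by subunit. Of 37 potassium channel genes, 14 (37.8%, against 27.3% of all genes) were higher and 5 (13.5%, against 23.8%) lower. *Kcnd2*, a pore subunit of the A-type current, had 78.7, 99.6 and 109 CPM (lowest, median, highest) in TRAP, against 23.9 and 23.8 CPM in input (log2 fold change 2.02 ± 0.20, adjusted p = 3.79e-06). Its auxiliary subunits were divided. *Dpp10* (1.31 ± 0.18, adjusted p = 5.32e-05) and *Kcnip4* (1.05 ± 0.18, adjusted p = 0.000234) were higher, *Kcnip1* was lower and *Dpp6* did not pass. The GIRK subunits were divided as well, with *Kcnj3* higher (1.24 ± 0.20, adjusted p = 0.000193) and *Kcnj9* lower. *Kcnc4* (-1.26 ± 0.22), *Kcnn1* (-0.96 ± 0.21), *Kcnj11* (-0.99 ± 0.24) and *Kcnj9* (-0.87 ± 0.28) were lower, with adjusted p-values of 0.000327, 0.00195, 0.00373 and 0.0184. With the block *Kcnj11* stood at 0.17 and *Kcnj9* at 0.26, and without input replicate 7 *Kcnj9* stood at 0.126. Of 29 sodium, calcium and HCN channel genes, 11 (37.9%) were higher and 6 (20.7%) lower. *Scn1a*, a sodium channel pore, rose by 1.73 ± 0.24 (adjusted p = 5.41e-05). Of the pacemaker channels, *Hcn2* was lower (-1.84 ± 0.26, adjusted p = 5.98e-05). *Nalcn*, the sodium leak channel of spontaneously active neurons, rose by 1.45 ± 0.19 (adjusted p = 2.82e-05) and *Cacna2d1* by 1.72 ± 0.21 (adjusted p = 1.69e-05). *Cacng7* (-2.96 ± 0.33, adjusted p = 9.4e-06) and *Cacnb3* (-1.27 ± 0.20, adjusted p = 0.000116) were lower.

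Genes of vesicle release and of the axon were higher in TRAP more often than genes at large. In the vesicle list 18 of 41 (43.9%) were higher and 7 lower. *Unc13c*, a priming factor, rose by 2.32 ± 0.23 (adjusted p = 4.73e-06), and *Syt1*, the calcium sensor of fast release, had 599.9, 651 and 865 CPM (lowest, median, highest) in TRAP, against 259 and 237 CPM in input (log2 fold change 1.45 ± 0.18, adjusted p = 2.39e-05). *Nrxn3* (1.95 ± 0.23) and *Syt4* (1.75 ± 0.18) were higher as well. *Rph3a* (-1.28 ± 0.30), *Cplx1* (-0.91 ± 0.26) and *Vamp1* (-0.89 ± 0.17), all parts of the release machinery, were lower, and with the block *Cplx1* stood at an adjusted p of 0.107. Of 33 genes of the axonal cytoskeleton 17 (51.5%) were higher and 5 lower. *Dpysl2* (1.83 ± 0.17), *Ank2* (1.84 ± 0.20), *Nefm*, a neurofilament (1.47 ± 0.21), and *Map1b* (1.23 ± 0.23) were higher. *Gap43*, a growth-associated protein of axons, had 303, 384 and 528 CPM in TRAP, against 727 and 794 CPM in input (log2 fold change -0.95 ± 0.18, adjusted p = 0.000529). *Ina*, *Map6* and *Tubb4a* were lower, with log2 fold changes of -2.18 ± 0.44, -1.12 ± 0.22 and -0.89 ± 0.16. Of 36 motor and adaptor genes of axonal transport 14 (38.9%) were higher, among them the kinesins *Kif21a* (2.13 ± 0.25), *Kif5b* (1.60 ± 0.22) and *Kif1b* (1.41 ± 0.20), and 8 were lower, among them *Kif1c* (-2.68 ± 0.17), *Klc2* (-2.30 ± 0.21) and *Dynll2* (-2.12 ± 0.19).

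Genes of axon injury and trophic support, listed because DSP-4 damages axons, stood near the background, with 6 of 19 (31.6%) higher and 5 (26.3%) lower. *Lifr*, a receptor of the LIF cytokines, had 53.2, 62.9 and 80.7 CPM (lowest, median, highest) in TRAP, against 21.2 and 13.96 CPM in input (log2 fold change 1.89 ± 0.24, adjusted p = 2.41e-05). The trophic receptors *Gfra1* (0.71 ± 0.21, adjusted p = 0.0122), *Ntrk2* (0.62 ± 0.16, adjusted p = 0.00596) and *Ret* (0.60 ± 0.17, adjusted p = 0.0105) were higher by less. *Map3k12*, the injury kinase DLK, had 7.84 to 41.6 CPM in TRAP, against 64.1 and 68.8 CPM in input (log2 fold change -1.38 ± 0.37, adjusted p = 0.00739). The stress factors *Ddit3* (-1.09 ± 0.20, adjusted p = 0.000497), *Gadd45g* (-0.73 ± 0.18, adjusted p = 0.0035) and *Atf4* (-0.61 ± 0.23, adjusted p = 0.0425) were lower in TRAP. The block put *Ntrk2*, *Ret*, *Gadd45g* and *Atf4* at 0.212, 0.169, 0.152 and 0.23. *Gfra1* stood at 0.12 without input replicate 2, *Ntrk2* at 0.113 without input replicate 7, and *Atf4* at 0.184 and 0.155 without each. Of the adrenergic receptors, *Adra2a*, the inhibitory autoreceptor gene of LC neurons, had 32.5 to 76.3 CPM in TRAP, against 39.2 and 24.2 CPM in input (log2 fold change 0.64 ± 0.27, adjusted p = 0.065, 0.512 without input replicate 7 and 0.129 with the block), and 5 of its 6 TRAP libraries lay above both inputs. *Adra1a* was higher (1.19 ± 0.30, adjusted p = 0.00496, 0.26 with the block) and *Adra1b* lower (-1.29 ± 0.28, adjusted p = 0.00156).

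**Figure D2:**
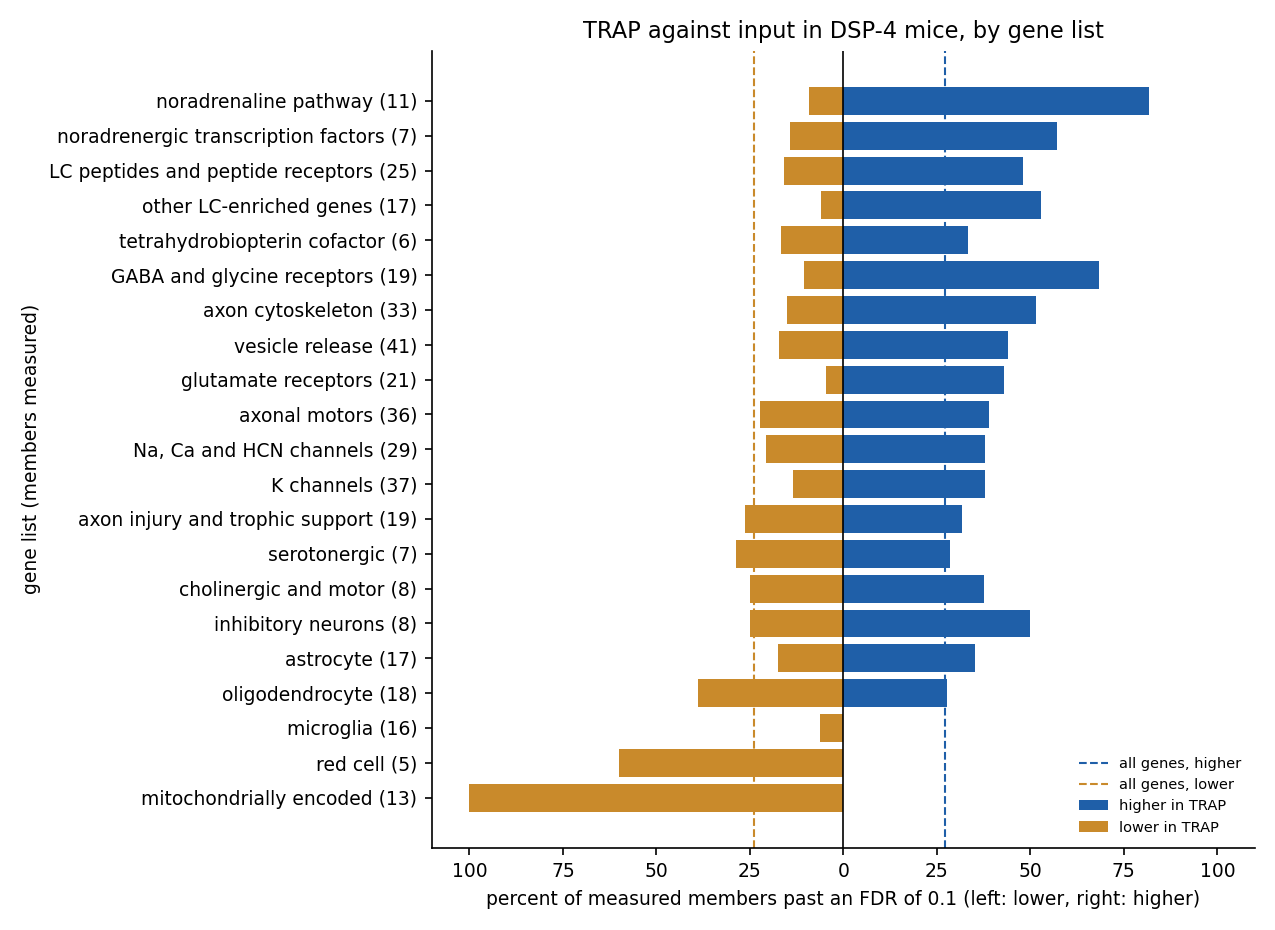
Percent of the measured members of 21 gene lists that were higher (right) or lower (left) in TRAP than in input of DSP-4 mice at an adjusted p under 0.1, with all 12009 genes as dashed lines (27.3% higher, 23.8% lower). The NE pathway reaches 81.8% higher and the mitochondrially encoded genes 100% lower, while the serotonergic list lies near the dashed lines.

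Markers of other neurons were not absent from the TRAP libraries. *Tph2*, the serotonin-synthesis enzyme of raphe neurons, had 60.6, 98.4 and 127 CPM (lowest, median, highest) in DSP-4 TRAP, against 35.8 and 32.6 CPM in input (log2 fold change 1.46 ± 0.28, adjusted p = 0.000716). Of 7 serotonergic markers 2 (28.6%, against 27.3% of all genes) were higher, *Tph2* and *Gata3*, and 2 (28.6%, against 23.8%) were lower. The lower ones were *En1* (-0.78 ± 0.35, adjusted p = 0.0812) and *En2* (-0.62 ± 0.28, adjusted p = 0.0894), which stood at 0.455 and 0.169 with the block. With a correction for GC content 3 of the 7 were higher (23.7% of all genes were) and 0 lower (18.8%). *Slc6a4*, the serotonin transporter, did not pass. *Slc5a7*, the choline transporter, rose by 1.74 ± 0.42 (adjusted p = 0.00336) while *Slc18a3*, the vesicular acetylcholine transporter, was lower (log2 fold change -1.92 ± 0.39, adjusted p = 0.00106) and *Chat* did not pass. Over the cholinergic and motor list 3 of 8 were higher and 2 lower, and 1 of the higher ones was *Calca*. Of 8 inhibitory neuron markers 4 were higher and 2 lower. *Gad1* had 413, 629 and 757 CPM in TRAP, against 241 and 202 CPM in input (log2 fold change 1.47 ± 0.23, adjusted p = 0.00013), and *Sst* was lower (-0.77 ± 0.17, adjusted p = 0.00168, 0.109 with the block). *Slc17a6*, the vesicular glutamate transporter of brainstem neurons, rose by 1.88 ± 0.17 (adjusted p = 2.86e-06), whereas *Slc17a7*, which marks cortical and cerebellar granule neurons, was lower (-1.75 ± 0.28, adjusted p = 0.000152). The summed level of the inhibitory list was 1931 to 2458 CPM in TRAP, against 1816 and 1852 CPM in input, and that of the serotonergic list was 143 to 226 CPM, against 120 and 125 CPM in input. The part of other neurons in the results above was not tested.

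Cerebellar markers, which the dissection should have left out, were measured in full, with 13 of 13 genes present. Their summed level was 606 to 1397 CPM in TRAP, against 620 and 659 CPM in input. Of these genes 2 were higher and 2 lower (15.4% each, against 27.3% and 23.8% of all genes). *Calb1*, a calcium buffer of Purkinje cells that other brainstem neurons also hold, had 222 to 453 CPM in TRAP, against 112 and 113 CPM in input (log2 fold change 1.502 ± 0.30, adjusted p = 0.00101). *Itpr1*, abundant in Purkinje cells, rose by 1.43 ± 0.44 (adjusted p = 0.015, 0.14 without input replicate 7). The median over the list was 0.99 in TRAP replicate 1 and -0.93 in TRAP replicate 3.

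Of 17 astrocyte genes 6 (35.3%, against 27.3% of all genes) were higher, 3 (17.6%, against 23.8%) lower and 8 did not pass. *Slc1a2*, the main glutamate transporter of astrocytes, had 453, 619 and 903 CPM (lowest, median, highest) in TRAP, against 202 and 155 CPM in input (log2 fold change 1.86 ± 0.24, adjusted p = 3.13e-05), while *Gfap*, the astrocyte filament, was lower (-0.59 ± 0.15, adjusted p = 0.00435, 0.135 with the block). Of 18 oligodendrocyte genes 5 (27.8%, against 27.3%) were higher and 7 (38.9%, against 23.8%) lower, with *Mbp*, a myelin protein, at -0.89 ± 0.16 (adjusted p = 0.000466). The summed oligodendrocyte level was 8349 to 14443 CPM in TRAP, against 9233 and 10327 CPM in input. Of 16 microglial genes 0 were higher (27.3% of all genes were) and 1 (6.25%, against 23.8%) was lower. The lower gene was *Tyrobp* (log2 fold change -1.58 ± 0.36, adjusted p = 0.00237). The summed microglial level was 344 to 532 CPM in TRAP, against 405 and 506 CPM in input. Of the 5 red cell genes 0 were higher and 3 (60.0%, against 23.8%) lower, with *Hba-a1* at 119.6 to 272 CPM in TRAP, against 368 and 489.9 CPM in input. Ependymal and choroid plexus genes summed to 76.4 to 2897 CPM in TRAP, against 1280 and 3628 CPM in input, and pituitary genes to 12.1 to 493 CPM, against 44.2 and 474 CPM in input, so both lists followed single libraries more than fractions.

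The smaller lists of other cells held few calls. Among 8 oligodendrocyte precursor genes *Ptprz1* (1.65 ± 0.27) and *Cspg4* (1.06 ± 0.36, adjusted p = 0.0245, 0.197 without input replicate 7 and 0.132 with the block) were higher and *C1ql1* (-1.20 ± 0.26) lower. Among 10 endothelial and mural genes *Rgs5*, a pericyte marker, was higher (1.35 ± 0.21), and *Igfbp7* was lower (-0.71 ± 0.31, adjusted p = 0.075, 0.422 and 0.121 without input replicates 2 and 7, 0.225 with the block, and lost also without TRAP replicates 1 or 8). Among 6 meningeal fibroblast genes *Dcn* was higher (0.84 ± 0.31, adjusted p = 0.0383, 0.372 without input replicate 7 and 0.287 with the block), and *Igf2* (-1.65 ± 0.25) and *Slc6a13* (-0.79 ± 0.29, adjusted p = 0.0353, 0.152 and 0.156 without input replicates 2 and 7, 0.132 with the block) were lower. *Foxj1*, of ciliated ependymal cells, was the 1 lower gene of its list (-1.04 ± 0.40, adjusted p = 0.0452, 0.381 without input replicate 2).

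Activity and disease genes were also listed, since LC axons are damaged by DSP-4 and early in Alzheimer's and Parkinson's disease. Of 10 immediate-early genes, which neurons switch on when they fire, 1 was higher and 1 lower (10% each, against 27.3% and 23.8% of all genes). *Nr4a3*, a nuclear receptor of this group, had 10.6, 21.3 and 26.3 CPM (lowest, median, highest) in TRAP, against 2.56 and 7.14 CPM in input (log2 fold change 2.06 ± 0.44, adjusted p = 0.00148). *Arc*, a synaptic plasticity gene, was lower (-1.06 ± 0.26, adjusted p = 0.00354). Of 21 genes linked to Parkinson's or Alzheimer's disease, 7 were higher and 7 lower (33.3% each, against 27.3% and 23.8% of all genes, median -0.15). *Vps35*, a retromer subunit, had 90.2, 224 and 309 CPM in TRAP, against 72.2 and 64.00 CPM in input (log2 fold change 1.65 ± 0.35, adjusted p = 0.00145). *Picalm* (1.32 ± 0.17), an endocytic adaptor, and *Sorl1* (0.93 ± 0.20), a sorting receptor, were higher. *Sncb*, the gene of beta-synuclein, was lower, with 324, 444 and 637 CPM in TRAP, against 1194 and 1252 CPM in input (log2 fold change -1.41 ± 0.19, adjusted p = 4.17e-05). The lysosomal gene *Atp13a2* was also lower (-1.17 ± 0.19).

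All 13 mitochondrially encoded genes were lower in TRAP (23.8% of all genes were), with a median log2 fold change of -2.52. These mRNAs are translated inside mitochondria by ribosomes that do not hold the tagged protein. *COX1* had 1678, 2280.2 and 8507 CPM (lowest, median, highest) in DSP-4 TRAP, against 24543 and 19607 CPM in input (log2 fold change -2.70 ± 0.49, adjusted p = 0.000451). TRAP replicate 3 was the highest for *COX1*, and its list median was -1.23, against -3.52 in replicate 8. *Rpl10a*, whose reads can come from the resident gene in all cells as well as from the transgene, had 92.7, 113 and 152 CPM in TRAP, against 164 and 217 CPM in input (log2 fold change -0.70 ± 0.22, adjusted p = 0.0184, 0.267 without input replicate 7). It was not enriched.

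**Figure D3:**
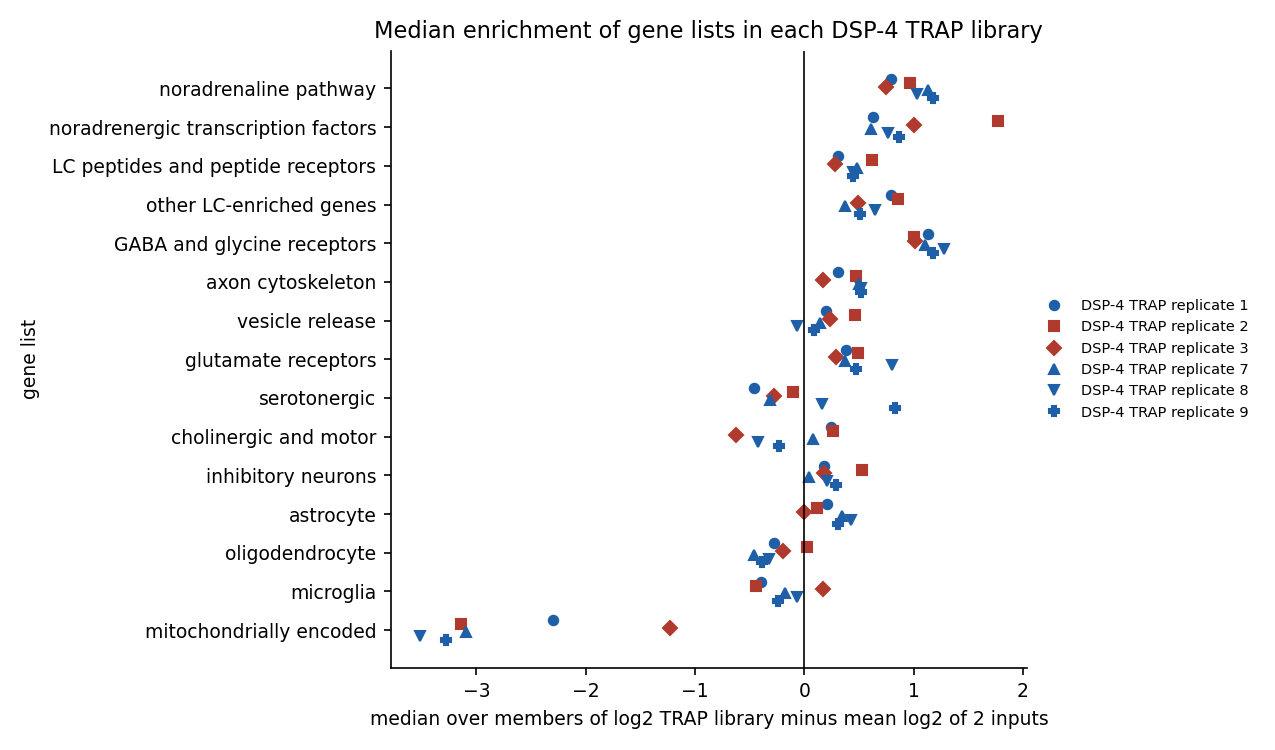
Median over list members of the log2 level in each DSP-4 TRAP library minus the mean log2 level of the 2 DSP-4 inputs, for 15 lists, with replicates 2 and 3 in red. In the NE pathway list the 6 libraries lie between 0.75 and 1.18, whereas in the mitochondrially encoded list they spread over -3.52 to -1.23.

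Beyond the lists, 10 genes had the largest rises under the rule of no overlap and at least 1 CPM. Beside *Slc6a2* and *Slc18a2* these were *Ssb*, an RNA-binding protein (3.05 ± 0.29), *Esf1* (3.05 ± 0.34), *Nexn* (3.01 ± 0.46), *Ddx10*, an RNA helicase (2.95 ± 0.41), *Cwf19l2* (2.94 ± 0.26), *Zfp638* (2.89 ± 0.33), *Nipbl*, the cohesin loader (2.84 ± 0.30), and *Nol8*, a nucleolar protein (2.80 ± 0.41). None of these 8 belongs to a list of neuronal or cell type genes used here. *Ssb* had 80.5, 143 and 171 CPM (lowest, median, highest) in TRAP, against 17.1 and 15.2 CPM in input. The largest falls were of *Gna12*, a G protein subunit (-4.35 ± 0.63), *Cabp7* (-4.18 ± 0.61), *Pkd1*, polycystin (-3.94 ± 0.35), *Rell2* (-3.82 ± 0.42), *Gps1* (-3.53 ± 0.80), *Kifc2*, a kinesin (-3.37 ± 0.22), *Ado* (-3.25 ± 0.53) and *AF357359* (-3.24 ± 0.61), besides the mitochondrial *ATP8* and *ND4L*. *Gna12* had 6.58 CPM in its highest TRAP library and 0 counts in replicate 2, against 88.8 and 84.3 CPM in input. Whether counting used the strand is not given in the sources used here, so genes that share exonic bases with another annotated gene are uncertain: the shared part is 64.5% for *Igf2*, 44.4% for *Rell2*, 31.1% for *Kcnj3*, 25.5% for *Ssb*, 22.0% for *Gnas* and 20.4% for *Gpbp1*.

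The rises and falls followed the GC content of the transcripts. Among the 11560 genes with an annotated transcript, Spearman's rho between the DSP-4 log2 fold change and GC content was -0.58 across genes, which share libraries and are not independent, and -0.42 for the saline enrichment. In the quintile of genes with the lowest GC content 62.1% were higher and 4.06% lower (median 0.80), and in the quintile with the highest GC content 2.69% were higher and 50.7% lower (median -0.58). All 6 TRAP libraries had this order of medians. Fold changes also moved with exonic length, with a rho of 0.41 across genes. With a per-library correction for GC content, 2851 genes (23.7%) were higher and 2263 (18.8%) lower. Of the identity genes, 22 of the 27 higher ones and 0 of the 7 lower ones then passed. The log2 fold changes after correction were 3.88 for *Slc6a2*, 3.10 for *Dbh*, 2.46 for *Gal*, 3.73 for *Phox2a*, 2.91 for *Calcr*, 2.66 for *Slc18a2* and 1.28 for *Th*. *Maoa*, with a GC content of 40.4%, stood at 0.03, and *Adcyap1* at 0.31 (adjusted p = 0.135). Among the function lists, 9 of 19 GABA and glycine receptor genes, 18 of 41 vesicle genes and 21 of 33 cytoskeleton genes were higher after correction. *Ssb* stood at 2.07, *Gna12* at -3.66 and *Gabrg1* at 0.66. *Hcrtr1* and *Cyb561*, which had missed the threshold, stood at 1.12 (adjusted p = 0.00392) and 0.45 (adjusted p = 0.0773). Of the genes named above, the enrichments of *Maob*, *Hcrtr2*, *Npy1r*, *Calb1*, *Vps35* and *Kcnip4* no longer passed with the correction, nor did the lower levels of *Gchfr*, *Rnf220*, *Cckbr*, *Npy*, *Ramp1*, *Fkbp1b*, *Gabbr1*, *Grm4*, *Kcnc4*, *Kcnj9*, *Kcnj11*, *Kcnn1*, *Cplx1*, *Tubb4a*, *Atf4*, *En1*, *En2*, *Sst*, *Gfap*, *Arc*, *Atp13a2*, *C1ql1*, *Foxj1*, *Slc6a13*, *Igfbp7* and *Hba-a1*. *Vgf*, *Gnas*, *Gadd45g* and *Dcn* changed direction.

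**Figure D4:**
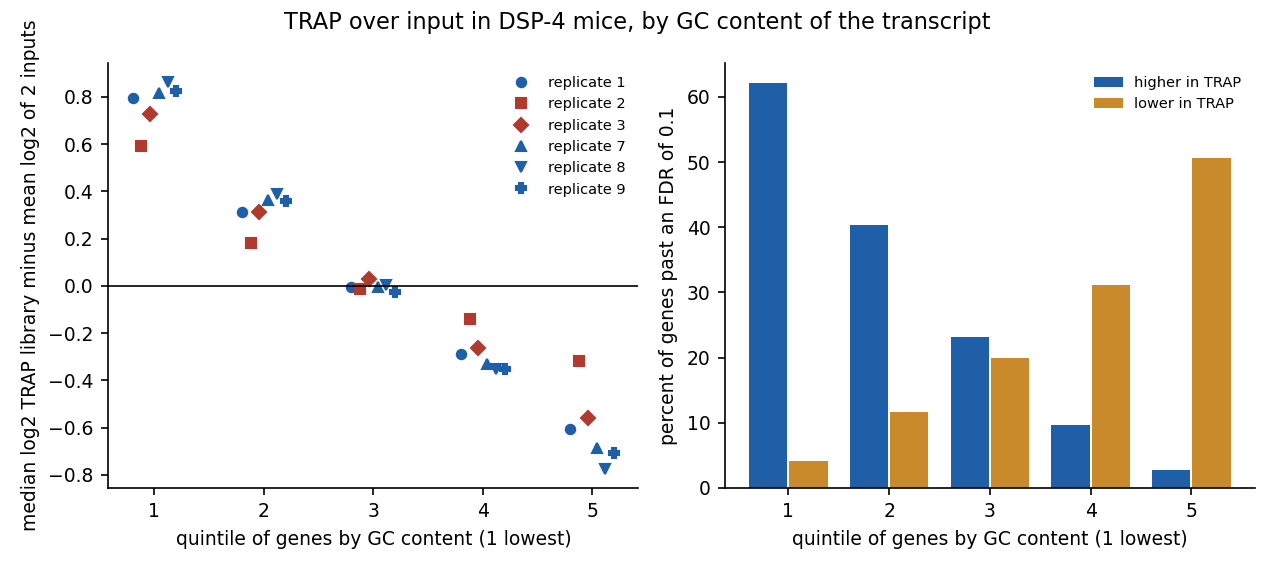
Left, median log2 level of each DSP-4 TRAP library minus the mean log2 level of the 2 inputs, for quintiles of genes by GC content, with replicates 2 and 3 in red. Right, percent of genes in each quintile that were higher or lower in TRAP at an adjusted p under 0.1. In the lowest quintile 62.1% are higher and in the highest quintile 50.7% are lower.

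The enrichment seen after DSP-4 was set beside that in saline mice, where TRAP had 2337 genes (19.5%) higher and 1880 (15.7%) lower than input. Of the 3281 genes higher in DSP-4 mice 2134 (65.0%) were also higher in saline mice, which is 91.3% of the saline calls, and 0 genes were called in opposite directions. The saline comparison has 3 TRAP libraries and the DSP-4 comparison 6, so the numbers of calls are not comparable. The tag is under the *Slc6a2* promoter, and the study reported less *Slc6a2* mRNA in DSP-4 than in saline TRAP. A lower enrichment after DSP-4 therefore cannot be told apart from a smaller yield of tagged ribosomes. No gene passed an adjusted p under 0.1 for a difference in enrichment between treatments by edgeR, DESeq2 or limma, with 264 genes (2.20%) more enriched and 57 (0.475%) less enriched in DSP-4 mice at an unadjusted p under 0.05 by edgeR (308 and 67 by DESeq2, 263 and 69 by limma). Of the 49 identity genes 28 (57.1%, against 46.2% of all genes) had the lower enrichment in DSP-4 mice, and 3 had an unadjusted p under 0.05, all with the lower enrichment in DSP-4 mice.

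Those 3 were *Dbh*, *Gal* and *Pcbd1*, and they were also among the 5 genes with the smallest p for a lower enrichment after DSP-4. *Dbh* had a log2 enrichment of 2.60 in DSP-4 mice and 3.71 in saline mice, where its levels were 127 to 144 CPM in TRAP and 9.98 and 10.7 CPM in input. The difference was -1.12 (95% interval -1.84 to -0.40, unadjusted p = 0.00467). *Gal* had 1.98 in DSP-4 mice and 2.88 in saline mice, a difference of -0.90 (-1.54 to -0.25, unadjusted p = 0.00928). For *Pcbd1*, whose own call in DSP-4 mice depended on single libraries (adjusted p = 0.0948, 0.538 without input replicate 2), the values were 0.34 and 1.05, a difference of -0.71 (-1.20 to -0.22, unadjusted p = 0.00741). *Slc6a2* had 3.81 in DSP-4 mice and 4.75 in saline mice (-0.93, -2.01 to 0.14, unadjusted p = 0.084), with 118 to 128 CPM in saline TRAP and 4.19 and 5.06 CPM in saline input. Without DSP-4 input replicate 2 this difference was -0.14. The saline side of this pair was selected, since by the study's methods saline samples whose TRAP did not reach a set enrichment of *Slc6a2* had been removed, and no such removal is described for DSP-4 samples. *Th* had 0.91 and 1.49 (-0.57, -1.17 to 0.02, unadjusted p = 0.0591). *Slc18a2* had its higher value in DSP-4 mice, with 2.83 against 2.42 (0.41, -0.29 to 1.11). For *Calcr* the values were 3.17 and 2.56 (0.60, -1.05 to 2.26), but the difference was -0.14 without DSP-4 input replicate 7, where its level was 0.282 CPM, and 2.38 without input replicate 2. Its TRAP level averaged 8.86 CPM in DSP-4 mice and 14.9 CPM in saline mice. For *Phox2a* the values were 2.70 and 2.85 (-0.16), and the interval of -1.74 to 1.42 spanned both directions, as did its difference with either DSP-4 input left out (-0.79 without replicate 7 and 1.08 without replicate 2).

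The remaining genes with the smallest p for the difference were *Shisa7*, an auxiliary subunit of GABA-A receptors (-1.09 in DSP-4 and 0.33 in saline mice, unadjusted p = 0.00615), and *Lmtk3* (-2.01 and -0.79, unadjusted p = 0.00783) on the lower side. On the higher side stood *A830018L16Rik* (1.41 and 0.32, unadjusted p = 0.000864), *Hs6st2*, a heparan sulfate sulfotransferase (2.02 and 1.05, unadjusted p = 0.000981), *Gpbp1* (1.79 and 0.96, unadjusted p = 0.00109), *Ermn*, an oligodendrocyte protein (1.60 and 0.77, unadjusted p = 0.00113), and *Tmem30a*, a flippase subunit (1.95 and 1.17, unadjusted p = 0.00179). None passed the correction over all genes.

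**Figure D5:**
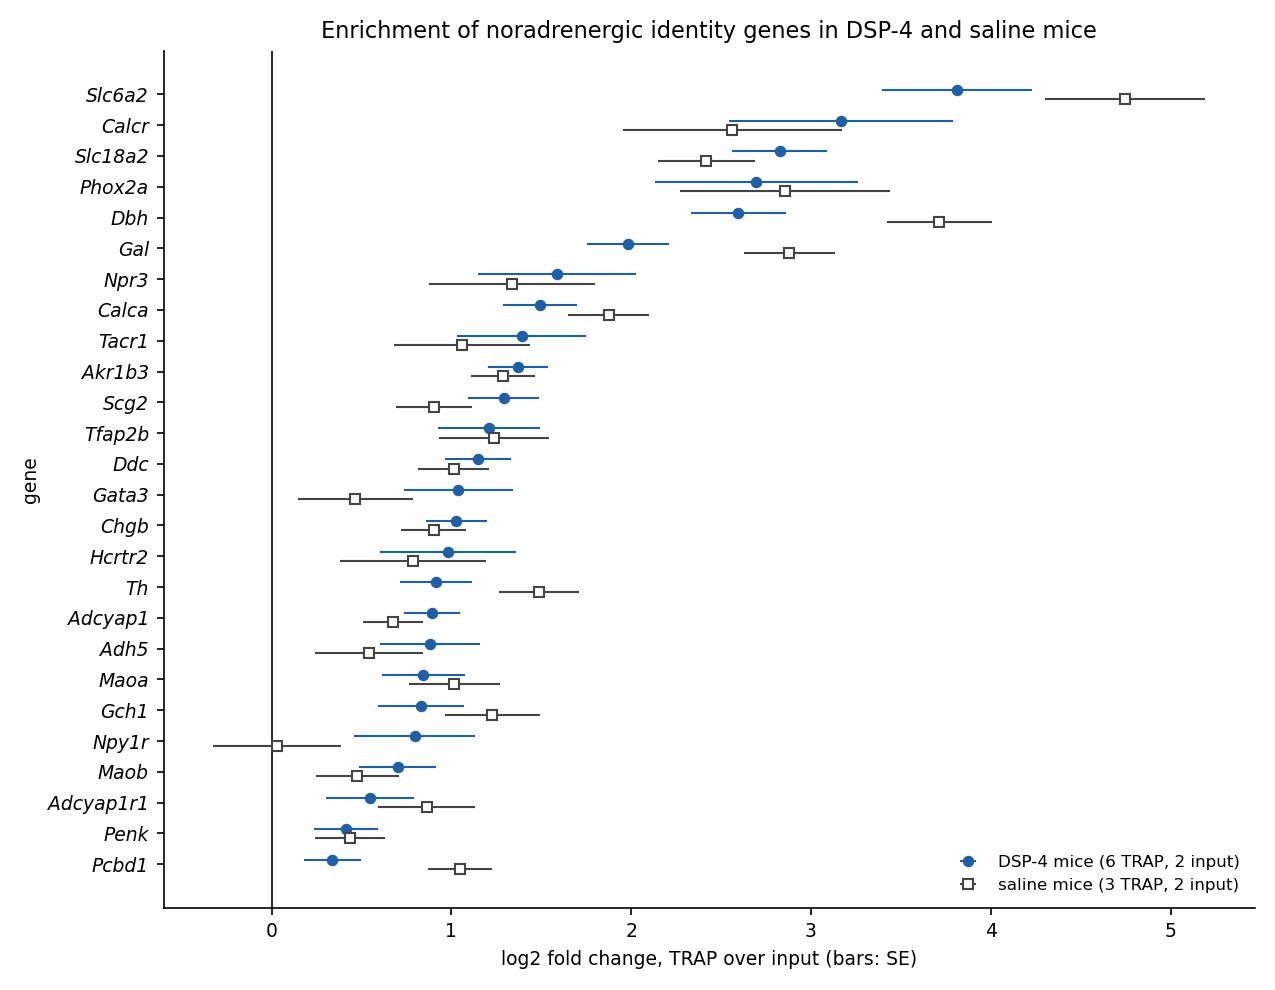
Log2 fold change of TRAP over input with its SE for 26 of the 27 identity genes that were higher in DSP-4 mice (filled circles) beside the same value in saline mice (open squares), ordered by the DSP-4 value. *Slc6a2*, *Dbh*, *Gal*, *Th* and *Pcbd1* have their lower value in DSP-4 mice, and *Slc18a2* and *Scg2* their higher one.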

How the data were processed

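The series is RNA-seq of TRAP and input fractions. The authors aligned the reads with STAR to mm10 and counted them per gene with featureCounts, with versions not given in the sources used here, and they deposited whole-number gene counts of 12009 genes in 13 libraries. Although that table is named as normalized, its values are raw counts with differing totals, so it was analysed as counts. Library totals are given in the report. Because replicates are pooled mice, p-values measure the spread between pools.

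The counts were scaled by TMM and fitted with edgeR 4.0.16 (R 4.3.3) in 4 groups, treatment by fraction, over all 13 libraries, with no further filter and a prior count of 1. Quasi-likelihood tests were 2-sided, with Benjamini-Hochberg adjustment over all genes and a threshold of 0.1. Intervals of 95% use the t quantile at the test's total degrees of freedom. The difference of enrichments was a contrast of the same fit. Alternatives were other scalings, DESeq2 1.42.0, limma 3.58.1, a filter of 1 CPM, a homogenate block, a per-library loess offset on GC content (span 0.3, GENCODE vM21 on GRCm38, 11560 genes matched), the 8 DSP-4 libraries alone, and libraries left out. Homogenates pair TRAP and input by the study's methods, and deviations of same-numbered libraries from their group means correlated at 0.18 and 0.27 (DSP-4 replicates 2 and 7) and 0.30 (saline replicate 12). With 2 inputs a treatment these values mirror each other, and a pair of other numbers (saline TRAP replicate 4 and input replicate 5) reached 0.38, so only the shared homogenate is taken as evidence of pairing. Figures used Python 3.11.15, pandas 2.3.3, numpy 2.4.6 and matplotlib 3.10.9.

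The members and the 32 gene lists were chosen with earlier results of these data known. Named genes were the 5 markers, the passing members of the 4 identity lists, in other lists from up to 4 passing members of smallest p in each direction, the 10 largest changes each way with no overlap and at least 1 CPM in the lower fraction, the 5 smallest p each way for the difference of enrichments, and Rpl10a. Some genes that this rule names are not reported here.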

Additional observations from a re-analysis of the deposited data

Results flagged for a closer look

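For each of the 195 named genes, the 6 DSP-4 TRAP libraries were tested on the log2 scale for 1 library that stood far from the other 5, by Dixon's test at its 95% critical value. Chance flags about 1 in 20 groups, and 17 genes were flagged, 11 of them in TRAP replicate 2, 4 in replicate 3, 1 in replicate 7 and 1 in replicate 8.

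TRAP replicate 2 was high for Rab3c at 931 CPM (357 to 486 CPM in the other 5 libraries), Tac1 at 113.7 CPM (79.8 to 89.3), C1ql1 at 56.2 CPM (23.5 to 29.8), Gata3 at 41.5 CPM (18.6 to 24.3) and Grm4 at 26.9 CPM (9.72 to 12.8). It was low for Gnas at 1338 CPM (2372 to 2729), Ugt8a at 56.9 CPM (111 to 143), Ina at 8.21 CPM (39.4 to 60.0) and Map3k12 at 7.84 CPM (24.5 to 41.6). It had 0 counts, hence 0 CPM, for Gna12 (3.71 to 6.58 CPM in the others) and AF357359 (2.61 to 5.17 CPM).

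TRAP replicate 3 was low for Gria3 at 42.0 CPM (67.6 to 88.3), Esf1 at 15.97 CPM (26.5 to 36.0) and Ddx10 at 8.83 CPM (19.5 to 29.9), and high for the mitochondrial ND4L at 28.4 CPM (8.59 to 11.7). Replicate 7 was low for Kif1c at 15.03 CPM (19.7 to 22.6), and replicate 8 was low for Ramp3, a receptor partner gene that did not pass the comparison, at 6.30 CPM (22.2 to 37.5). The cause was not tested in any of these cases. Of the noradrenergic markers Slc6a2, Dbh, Gal, Phox2a and Calcr, and of Th, Ddc and Slc18a2, none had such a library.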

How the results depend on the processing

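The counts of 3281 genes higher and 2854 lower were 2037 and 1699 with the replicate block, 1663 and 1531 with the block and the GC offset together, and 2081 to 3529 and 1597 to 3385 over the fits that left out 1 library. They were 3729 and 3748 without TRAP replicates 2 and 3 together. The 1 lower gene of the NE pathway was 0 with DESeq2 size factors, TMM without mitochondrial genes, the DESeq2 Wald test, limma, the replicate block, the GC offset, both together and the 8 DSP-4 libraries alone, and 0 to 1 with 1 library left out. In the pairing by homogenate the block leaves only 2 TRAP and 2 input libraries to bear on the enrichment.

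With the GC offset the log2 fold change was -0.18 for Dcn, 0.00047 for Gadd45g, 0.0292 for Gnas, 0.25 for Sox10, -0.0902 for Ugt8a and 0.28 for Vgf, each opposite to its uncorrected direction. With the offset and the block it was 0.0198 for Ache, -0.0830 for Aspa, -0.35 for Dcn, -0.0393 for Maoa, 0.30 for Sox10, -0.47 for Ugt8a and 0.47 for Vgf. The difference of enrichments of Phox2a was 0.0317 with the block, 0.19 with the GC offset, -0.79 to 1.08 with 1 library left out (1.08 without DSP-4 input replicate 2), 0.12 without saline input replicate 5 and 0.10 without TRAP replicates 2 and 3, against -0.16, and that of Calcr was -0.14 (without DSP-4 input replicate 7) to 2.38 with 1 library left out, against 0.60. The cause was not tested. Of 180 calls on named genes, 43 kept their direction without passing with the block, 37 without input replicate 7, 24 without input replicate 2 and at most 9 under any other alternative but the GC offset. With the GC offset 43 did so and 6 changed direction, and with the offset and the block together 65 did so and 7 changed direction. The DSP-4 comparison has 2 inputs, which limits its precision.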
